A study of Homo sapiens with 14 samples.

Results

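The transcripts described here are the antisense, divergent, intronic and intergenic noncoding RNAs that an Affymetrix array named in HEK293 cells, an established human embryonic kidney cell line. They are the genes of the platform annotation whose symbol ends in -AS1, -AS2, -AS3, -IT1 or -DT, or begins with LINC and a number. Each was read by its probe set of highest mean over the 14 arrays, among probe sets with 1 gene symbol, and that probe set had to reach a log2 value of 5 on at least 3 arrays. Of 1839 such names on the array 205 passed and 1634 did not, and the 205 stand among 10344 genes tested in all. They comprised 122 antisense transcripts, 50 LINC genes, 30 divergent transcripts and 3 intronic transcripts. Membership rests on measured levels, so the levels that chose the transcripts are given as description. TDH-AS1, TAPT1-AS1 and MYLK-AS1 lay just inside the level, with a third-highest value of 5.01, 5.03 and 5.05. CTBP1-DT, CRIM1-DT and DSP-AS1 lay just outside, with 4.99, 4.96 and 4.94.

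Cells had been stably transfected and kept under G418, an antibiotic that removes untransfected cells. The array titles name this selection only for part of the HA vector arrays. The groups were 4 arrays of HOXD13 with a V5 tag, 3 arrays of the V5 tag vector, 4 arrays of HOXD9 with an HA tag and 3 arrays of the HA tag vector. Each HOX group held 1 mixed population and 3 clones (a, b, c) derived from it, so that each clone is 1 line and the 4 lines are not fully independent. The labels name the vector arrays as biological replicates without saying how the cultures were kept apart, so p-values reflect sample spread that may be partly technical. Both genes encode homeodomain proteins that bind DNA and act late along the body axis, and each was compared with the vector of its own tag.

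Antisense transcripts run from the strand opposite to a gene, the host gene, whose name they carry. Divergent transcripts start near a gene's promoter and run the other way, intronic transcripts lie inside a gene's intron, and LINC genes lie between coding genes. Some of these RNAs act on the neighbouring gene, some act elsewhere, and many are short-lived products of promoters that the nuclear exosome degrades. For most of them no function is established, and a named host gene is a statement about position.

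The transgenes were read in the lines labelled with them, with a mean log2 value of 12.43 for the brightest HOXD13 probe set in the HOXD13 lines, against 6.93 in the V5 vector, and 6.99 for a HOXD9 probe set in the HOXD9 lines, against 2.73 in the HA vector. The brightest HOXD13 probe set was at 12.24 in clone c and at 12.32 to 12.59 in the other HOXD13 lines. A dimmer one was at 8.26 in clone c and at 8.39 to 8.41 in the others, against 3.053 to 3.445 in the V5 vector. A further probe set of each gene showed less. The HOXD9 one was at 4.40 in the HOXD9 lines, against 4.22 in the HA vector. The HOXD13 one was at 8.87 in clone c and at 10.15 to 10.42 in the other HOXD13 lines. In the V5 vector it was at 8.93 to 8.95. The HOX lines varied more than the vectors: the median SD of the 205 transcripts was 0.30 in the HOXD13 lines and 0.077 in the V5 vector, and 0.229 in the HOXD9 lines and 0.067 in the HA vector (log2, n = 4 and 3). The actin 3′ minus 5′ probe set difference, a sign of RNA quality, was 2.14 in the HOXD13 mixed population and 2.01, 1.82 and 2.81 in its clones a to c, against 2.19 to 2.26 in the V5 vector. In the HOXD9 lines it was 2.26 in the mixed population and 1.70, 2.35 and 2.10 in the clones, against 2.29 to 2.37 in the HA vector. How the counts moved with the actin difference as a covariate is given in the last section. Whether these differences caused any result was not tested. Of 8 HEK293 markers, NEFL, EYA1, KRT8, KRT18 and VIM reached the level of 5, and NEFM, PAX2 and LHX1 did not, with a highest value of 4.89. Endothelial, blood and hepatocyte markers stayed at or below 2.64, 2.66 and 2.44 on every array, and of 5 fibroblast markers only COL1A1 reached 5. An array value is relative to the rest of the RNA, so that fewer transcribing cells and less RNA per cell cannot be told apart.

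Clone c of HOXD13 stood apart from the other HOXD13 lines. The mixed population and clones a and b all lay below every V5 vector array while clone c lay above them in 28 of 205 transcripts (13.7%), against 12.5% of all genes tested. The opposite arrangement held for 18 transcripts (8.78%), against 20.5% of all genes. Total counts of calls are therefore given with and without clone c. Class counts, changes of single transcripts and changes of hosts are given with it.

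**Figure D1:**
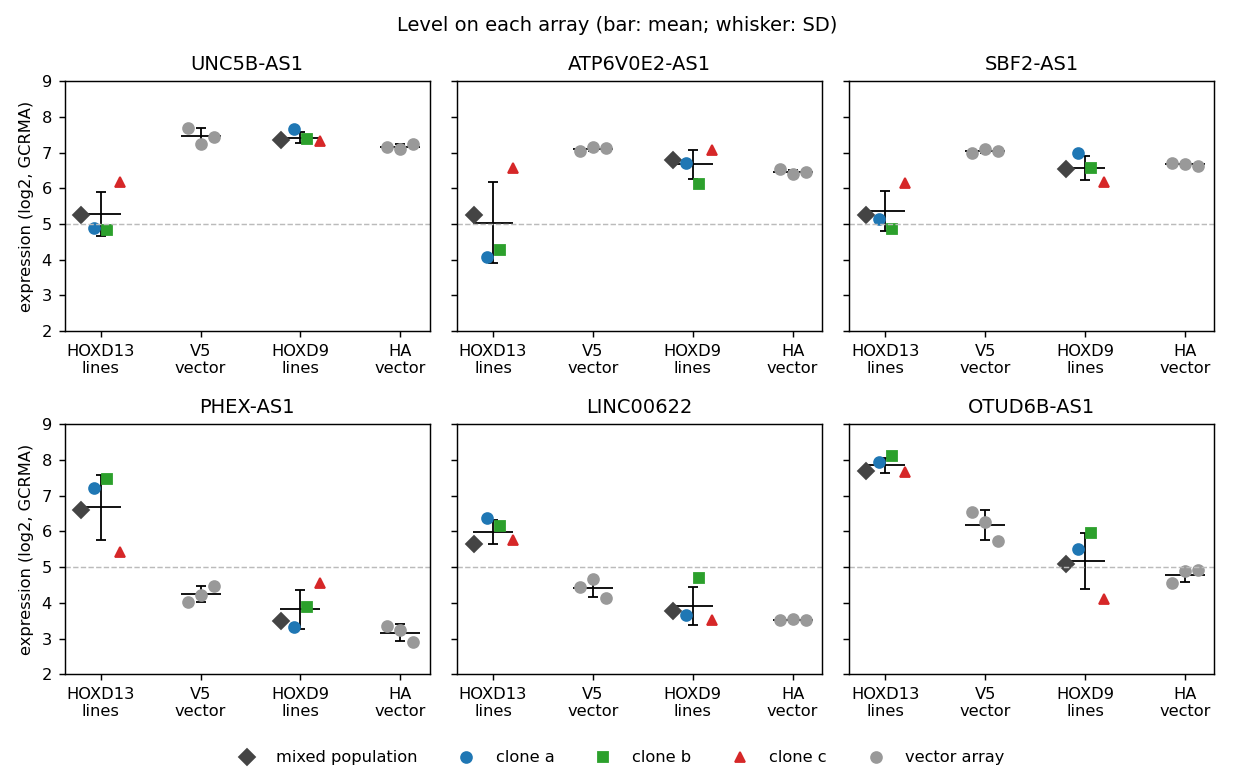
Log2 expression (GCRMA, vertical axis) of 6 transcripts on each of the 14 arrays, grouped on the horizontal axis as HOXD13 lines, V5 vector, HOXD9 lines and HA vector; symbols mark the mixed population and clones, bars the mean and whiskers the SD, and the dashed line the level of 5. UNC5B-AS1, ATP6V0E2-AS1 and SBF2-AS1 sit lower in all 4 HOXD13 lines than in the V5 vector, and PHEX-AS1, LINC00622 and OTUD6B-AS1 sit higher. Levels are comparable only within a tag set.

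The transcripts that mark the group, picked with their changes known, had the largest falls called with HOXD13 and the largest rise. Their promoters are shown first, because the letters TTTAT and TTTAC, which posterior HOX proteins favour, were searched in them. Each is the RefSeq window of GRCh38.p14 from 250 bases before the start to 50 after it, on the transcript's strand, with TTTAT or TTTAC, read on either strand, in capitals.
UNC5B-AS1 (chr10:71218179-71218478, minus strand): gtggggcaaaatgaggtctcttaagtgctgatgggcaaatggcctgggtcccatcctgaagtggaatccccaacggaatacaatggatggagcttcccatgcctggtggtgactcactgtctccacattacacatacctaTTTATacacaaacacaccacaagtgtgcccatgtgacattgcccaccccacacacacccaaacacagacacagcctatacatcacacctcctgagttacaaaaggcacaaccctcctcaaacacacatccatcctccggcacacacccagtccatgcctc
ATP6V0E2-AS1 (chr7:149873813-149874112, minus strand): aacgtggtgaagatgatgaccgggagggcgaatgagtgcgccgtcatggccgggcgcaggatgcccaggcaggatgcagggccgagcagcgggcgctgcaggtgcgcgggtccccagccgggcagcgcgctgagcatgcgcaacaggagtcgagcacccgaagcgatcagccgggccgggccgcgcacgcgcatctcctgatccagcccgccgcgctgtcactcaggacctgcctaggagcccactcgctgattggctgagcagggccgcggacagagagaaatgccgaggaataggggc
SBF2-AS1 (chr11:9758043-9758342, plus strand): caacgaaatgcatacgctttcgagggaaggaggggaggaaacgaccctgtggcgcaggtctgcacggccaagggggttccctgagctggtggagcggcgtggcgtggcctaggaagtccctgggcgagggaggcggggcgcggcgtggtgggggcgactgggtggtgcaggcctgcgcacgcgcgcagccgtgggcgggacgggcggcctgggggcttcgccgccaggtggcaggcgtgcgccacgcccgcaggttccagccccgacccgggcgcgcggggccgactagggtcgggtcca
PHEX-AS1 (chrX:22172934-22173233, minus strand): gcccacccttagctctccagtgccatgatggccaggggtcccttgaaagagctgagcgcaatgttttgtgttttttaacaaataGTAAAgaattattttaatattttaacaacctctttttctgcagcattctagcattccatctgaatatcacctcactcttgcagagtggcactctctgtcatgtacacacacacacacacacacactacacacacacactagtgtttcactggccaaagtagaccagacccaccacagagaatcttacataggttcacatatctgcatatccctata
UNC5B-AS1 held 1 TTTAT, which overlaps the reverse complement of the TATA-box letters TATAAA, and PHEX-AS1 held 1 TTTAC as GTAAA. ATP6V0E2-AS1 and SBF2-AS1 held neither, and their windows were 69.3% and 74.3% G or C, against 51.3% in UNC5B-AS1 and 42.7% in PHEX-AS1.

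RefSeq gave a window for 166 of the 205 transcripts. On either strand, 22.3% of the 166 held TTTAT, against 19.8% of the 8613 genes tested that had a window and 35.8% of all 27305 promoters. TTTAC was held by 27.1% of the 166, against 19.7% of the genes tested and 28.4% of all promoters, and TATAAA by 9.64%, against 5.06% and 12.0%. Among the transcripts that changed with HOXD13, as given below, TTTAT stood in 4 of 9 windows of those that rose and 5 of 24 of those that fell, and TTTAC in 5 of 9 and 4 of 24. Windows of those that rose were 53.0% G or C and windows of those that fell 65.5%. The numbers are small and base composition moves with them, so these matches are a description of letters.

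With HOXD13, 42 of the 205 transcripts changed against the V5 vector (20.5%), 11 of them higher and 31 lower, at a limma adjusted p under 0.05. Over all 10344 genes tested the share was 10.6%, with 2.88% higher and 7.76% lower. Among the transcripts 5.37% rose and 15.1% fell. A change of at least 2-fold was reached by 3 of the rises and 14 of the falls, against 83 and 89 of the 10344 genes. PHEX-AS1 and LINC00622 are counted among the 11 rises and among these 3. They passed the level only through the HOXD13 lines and so had to differ. The median change of the 205 was −0.10 on the log2 scale, with quartiles of −0.48 and 0.17, and that of all genes was −0.03. Without clone c of HOXD13, 94 of 205 passed (30 higher, 64 lower), against 35.8% of all genes. Without 1 V5 vector array 14 or 15 passed, and without the mixed population, clone a or clone b of HOXD13 24, 17 and 22 passed, against 2.93% to 5.63% of all genes.

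By class, 8 antisense transcripts rose and 20 of the 122 fell (23.0% in all), against 10.6% in all of the genes tested. Of the 50 LINC genes 2 rose and 7 fell (18.0%), and of the 30 divergent transcripts 1 rose and 4 fell (16.7%). None of the 3 intronic transcripts passed at the adjusted threshold. Of 113 transcripts at 5 or more on all 14 arrays, 7 rose and 18 fell (22.1%). PHEX-AS1 and LINC00622 passed the level only through the HOXD13 lines and so had to differ. A group of 27 transcripts reached 5 only on arrays of the V5 tag set, and 3 of these rose (11.1%), PHEX-AS1 and LINC00622 among them. Values of the V5 set ran higher as a whole, with a 75th percentile of 7.02, against 6.27 for HA. Nothing is therefore read from the size of this group. The median genomic length was 4937 bases for the 11 that rose, 6773 bases for the 31 that fell and 9222.5 bases for those that did not pass.

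**Figure D2:**
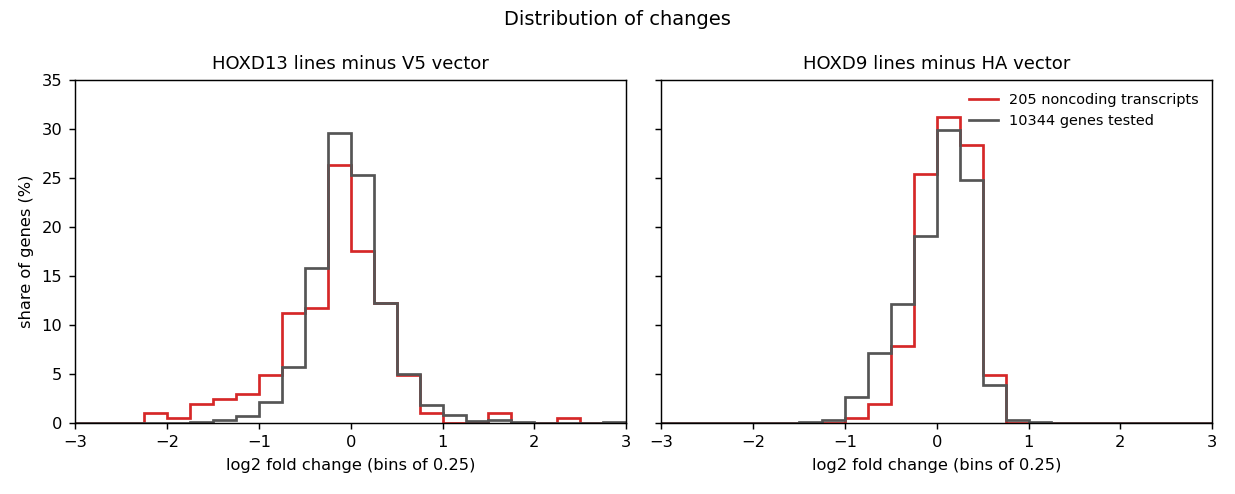
Share of genes (%, vertical axis) by log2 fold change in bins of 0.25 (horizontal axis) for the 205 noncoding transcripts and for all 10344 genes tested, HOXD13 lines against V5 vector on the left and HOXD9 lines against HA vector on the right. With HOXD13 24.9% of the transcripts lie below −0.5, against 8.88% of all genes, and with HOXD9 2.44% of the transcripts lie there, against 10.1% of all genes.

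Among antisense transcripts the largest fall was that of UNC5B-AS1, named for the netrin receptor gene UNC5B. UNC5B-AS1 was at 5.26 in the mixed population and at 4.90, 4.82 and 6.17 in clones a to c, against 7.69, 7.23 and 7.43 in the V5 vector. All 4 lines lay below all 3 vector arrays. It fell by 2.16 on the log2 scale (SE 0.26, limma adjusted p = 0.000679) and held its call whichever array was left out. UNC5B-AS1 and the other 3 transcripts that mark the group, ATP6V0E2-AS1, SBF2-AS1 and PHEX-AS1, were picked with their changes known.

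ATP6V0E2-AS1, named for a subunit gene of the vacuolar proton pump, was at 5.24, 4.07, 4.29 and 6.56 in the mixed population and clones a to c, against 7.04, 7.16 and 7.12 in the V5 vector. No line overlapped the vectors, and clone c lay nearest to them. It fell by 2.07 (SE 0.45, limma adjusted p = 0.013), and the call ended when any V5 vector array was left out, with an adjusted p of at most 0.0589.

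SBF2-AS1, from the locus of a myotubularin-related gene, was at 5.26, 5.14, 4.86 and 6.15 in those 4 lines, against 6.999, 7.09 and 7.03 in the vector. Again every line was below every vector array. It fell by 1.69 on the log2 scale (SE 0.25, limma adjusted p = 0.00196), and it held whichever array was left out.

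NCAM1-AS2, from the locus of a neural cell adhesion molecule, was at 4.98, 4.17 and 3.68 in the mixed population and clones a and b and at 6.48 in clone c, against 6.43, 6.40 and 6.62 in the vector. Clone c overlapped the vectors and the other lines did not. The change was −1.65 (SE 0.46, limma adjusted p = 0.0387), and the call ended in 10 of the 14 fits that leave 1 array out.

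LOXL1-AS1 (−1.31), PSMG3-AS1 (−1.29) and TMPO-AS1 (−1.27) fell with limma adjusted p of 0.0218, 0.0109 and 0.00952. LOXL1 crosslinks elastin, PSMG3 helps to assemble the proteasome, and TMPO makes proteins of the nuclear lamina. TMPO-AS1 was at 3.48, 3.25, 3.33 and 4.60 in the HOXD13 lines, against 5.01, 5.03 and 4.76 in the vector. WARS2-AS1 and KLRK1-AS1 both changed by −1.16, with limma adjusted p of 0.0268 and 0.00106, but the spread differed: clone c of WARS2-AS1 was at 9.11, against 9.17 to 9.26 in the vector, whereas KLRK1-AS1 was at 5.65 to 6.25 in the 4 lines, against 7.003 to 7.27 in the vector.

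KANSL1-AS1 (−1.10), HHIP-AS1 (−1.02) and DHRS4-AS1 (−0.97) fell too, with limma adjusted p of 0.0117, 0.00608 and 0.0206. HHIP, the host of HHIP-AS1, encodes a protein that binds hedgehog ligands, and KANSL1 a scaffold of a histone acetyltransferase complex. HOXB-AS3, which runs antisense within the HOXB cluster, was at 7.42, 7.81, 7.52 and 7.93 in the HOXD13 lines, against 8.69, 8.57 and 8.59 in the vector (−0.94, SE 0.18, limma adjusted p = 0.00817). It was read by 4 probe sets that passed the level, and their mean changes were −0.94, −0.77, −1.29 and −1.08. The other antisense transcripts that fell were TDH-AS1, ZNF407-AS1, ASH1L-AS1, FOXN3-AS1, ZBED5-AS1, ZNF503-AS2 and TMEM44-AS1, by −0.80 to −0.47.

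Of the LINC genes, LINC02709 was at 3.91, 4.19, 4.11 and 4.84 in the HOXD13 lines, against 5.70, 6.05 and 6.03 in the vector. It fell by 1.67 on the log2 scale (SE 0.23, limma adjusted p = 0.00144). LINC00963 was at 3.68, 4.52, 4.27 and 4.76, against 5.62, 5.69 and 5.74, and changed by −1.38 (SE 0.20, limma adjusted p = 0.00158). Neither overlapped the vectors. LINC02893, LINC00205, LINC00491, LINC00965 and LINC02381 fell by smaller amounts, −0.90 for LINC02893 to −0.36 for LINC02381. LINC02381 was among the 5 transcripts of highest mean, at 10.96 to 11.20 in the HOXD13 lines, against 11.42 to 11.45 in the vector.

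Among divergent transcripts EIF3J-DT, which starts 224 bases from the start of the translation initiation factor gene EIF3J, was at 4.77, 3.84, 3.86 and 5.66 in the HOXD13 lines, against 6.04, 5.95 and 5.81 in the vector. Every line was below every vector array, and the change was −1.40 (SE 0.34, limma adjusted p = 0.0227). CNN3-DT, DPH5-DT and RNASEH1-DT changed by −0.70, −0.55 and −0.45, with limma adjusted p of 0.0144, 0.0329 and 0.0478.

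The largest rise was that of PHEX-AS1, from the locus of PHEX, a peptidase gene of phosphate balance in bone. It was at 6.59, 7.23, 7.47 and 5.42 in the HOXD13 lines, against 4.03, 4.23 and 4.48 in the V5 vector. All lines lay above all vectors, with clone c lowest, and the vector arrays were below the level of 5. It was higher by 2.43 on the log2 scale, and since it passed the level only through the HOXD13 lines it had to differ.

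LINC00622 was at 5.66, 6.38, 6.16 and 5.77 in the HOXD13 lines, against 4.45, 4.67 and 4.15 in the vector, a difference of 1.57, and it had to differ for the same reason. OTUD6B-AS1, named for a deubiquitinase gene, was at 7.68, 7.94, 8.12 and 7.66, against 6.54, 6.26 and 5.73, a rise of 1.67 (SE 0.34, limma adjusted p = 0.00925). Its other passing probe set had a mean change of 0.37. The call of OTUD6B-AS1 ended without the V5 vector array at 5.73, with an adjusted p of 0.0597.

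PCBP1-AS1, named for an RNA-binding protein gene, rose by 0.96 (SE 0.22, limma adjusted p = 0.0156), and its 3 passing probe sets had mean changes of 0.96, 1.01 and 1.27. CARD8-AS1, named for an inflammasome regulator, was at 7.34, 7.44, 7.62 and 7.23 in the HOXD13 lines, against 6.61, 6.76 and 6.84 in the vector, a rise of 0.67 (SE 0.12, limma adjusted p = 0.00455). RBM33-DT rose by 0.84, PRKCQ-AS1 by 0.66, TMEM147-AS1 by 0.58, PDCD4-AS1 by 0.57, LINC02210 by 0.42 and MAPKAPK5-AS1 by 0.37. In PRKCQ-AS1 clone c was at 6.41, against 7.17 to 7.31 in the other HOXD13 lines and 6.29 to 6.42 in the vector, so that 3 of 4 lines were clear of the vectors.

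**Figure D3:**
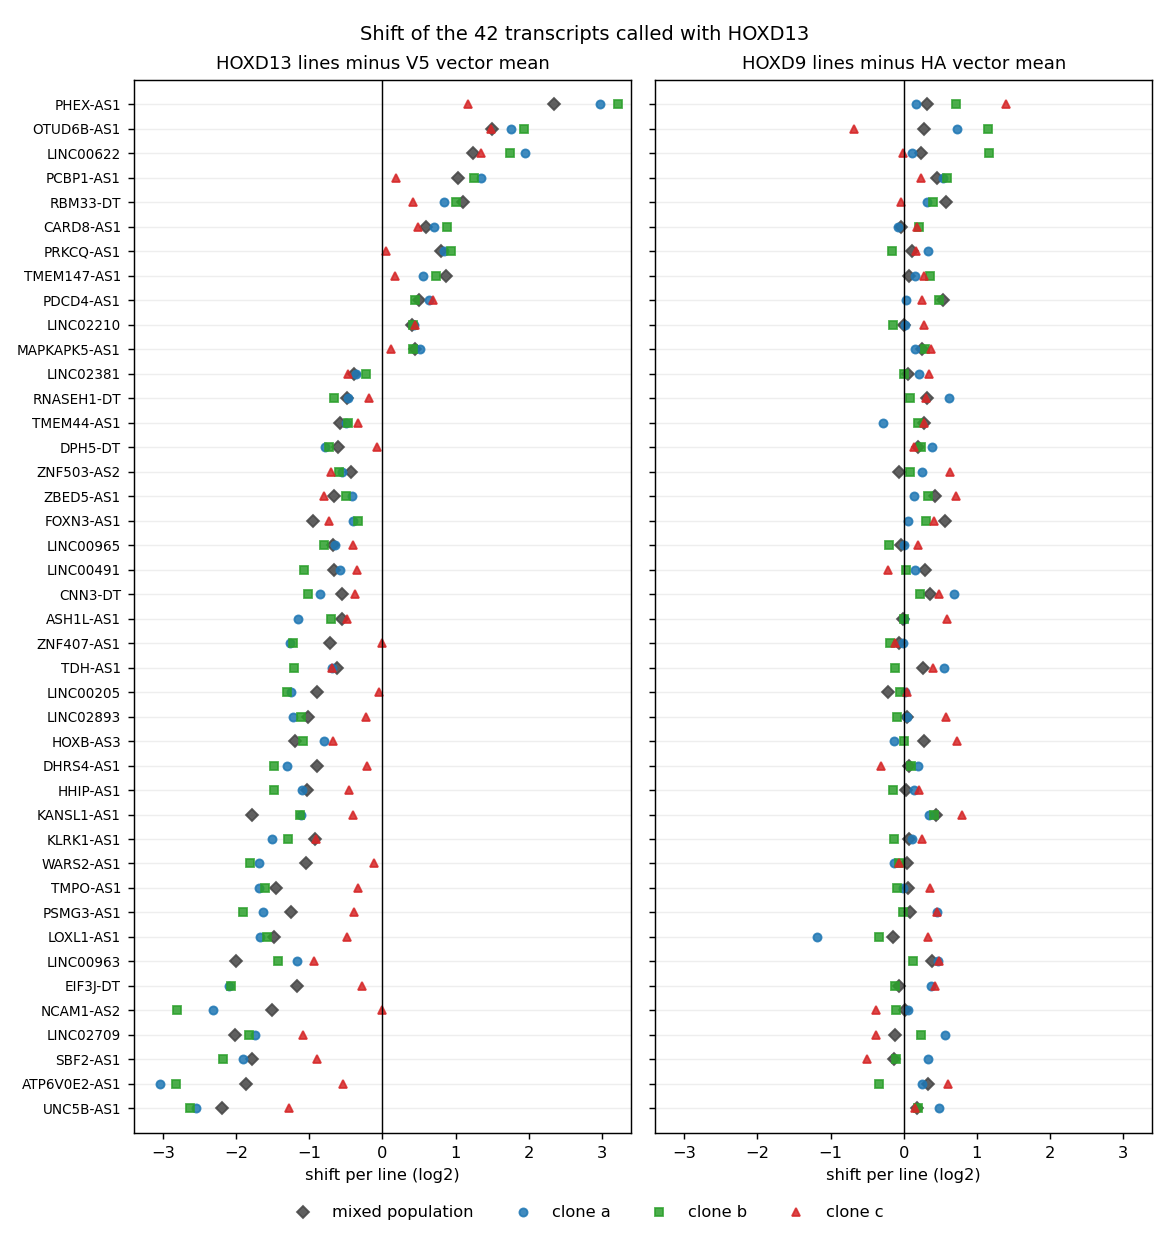
Shift of each HOX line from the mean of its own vector (log2, horizontal axis) for the 42 transcripts called with HOXD13 (vertical axis, ordered by fitted change), HOXD13 lines on the left and HOXD9 lines on the right, with symbols for the mixed population and clones. Clone c of HOXD13 has the smallest shift in 26 of the 31 falls and 8 of the 11 rises. The transcripts were chosen for their change on these arrays, and the share over all genes was not computed.

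Clone c had the smallest shift of the 4 HOXD13 lines in 26 of the 31 falls and in 8 of the 11 rises. Its median shift was −0.40 in the falls and 0.44 in the rises, against −0.95 to −1.22 and 0.84 to 0.94 in the other lines. In 28 of the 31 falls all 4 lines lay below all 3 vector arrays, and in 9 of the 11 rises all lay above. These falls and rises were chosen for their change on the same arrays, so nothing is read from how many lacked overlap. How often clone c had the smallest shift over all genes was not computed. The 9 include PHEX-AS1 and LINC00622, which passed the level only through the HOXD13 lines and so had to differ. Over the 205 transcripts 52 lay wholly below and 18 wholly above (34.1% in all), against 20.3% below, 8.59% above and 28.9% in all over the genes tested.

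The 5 uncalled transcripts of largest change were low in the other HOXD13 lines but not in clone c. SDCBP2-AS1 was at 4.77, 3.60 and 3.55 in the mixed population and clones a and b and at 6.59 in clone c, against 6.21, 6.54 and 6.42 in the vector (−1.76, limma adjusted p = 0.0516). SOX21-AS1 was at 3.39, 2.76 and 2.81 and at 5.79 in clone c, against 5.42, 5.49 and 5.07 (−1.64, adjusted p = 0.0715). MAGI2-AS3 (−1.25), ZEB1-AS1 (−1.03) and NNT-AS1 (−0.96) had adjusted p of 0.17, 0.0657 and 0.0858. In MAGI2-AS3 and NNT-AS1 clone c lay above every vector array, and in ZEB1-AS1 it was within their range. The 11 calls that held in each of the 14 fits that leave 1 array out were those of UNC5B-AS1, SBF2-AS1, LINC02709, LINC00963, KLRK1-AS1, HHIP-AS1, HOXB-AS3, LINC00965 and CARD8-AS1, with PHEX-AS1 and LINC00622, which had to differ because they passed the level only through the HOXD13 lines.

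Host genes were then set beside the transcripts. Of 155 names that carry a host's symbol, 139 hosts had a probe set with 1 symbol and 118 were tested, and only changes were compared, since levels of different probe sets are not on a common scale. By RefSeq positions, 73 transcripts overlapped their host on the opposite strand, 43 lay apart on the opposite strand with a median of 169 bases between the starts, 3 overlapped on the same strand and 36 were not placed here. Of the 118 hosts 2 were called higher and 6 lower with HOXD13 (6.78% in all), against 2.88% higher and 7.76% lower of all genes. Transcript and host changed with the same sign in 66 of 118 pairs, and across pairs Pearson's r was 0.114 and Spearman's rho 0.14, a description over pairs read on the same 7 arrays.

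Of the 42 transcripts called with HOXD13, 26 had a host that was tested. The hosts changed by −0.50 to 0.75, and 25 of 26 by less than 0.5, as did 104 of all 118 hosts tested. The transcripts were chosen for their change and the hosts were not, so a wider spread of the transcripts was built in. UNC5B was at 10.43, 10.35, 10.41 and 9.89 in the HOXD13 lines, against 10.53, 10.51 and 10.49 in the vector, a change of −0.24 (SE 0.14, limma adjusted p = 0.287) beside −2.16 for UNC5B-AS1. ATP6V0E2 changed by −0.11 (SE 0.16, limma adjusted p = 0.716) beside −2.07 for ATP6V0E2-AS1, whose start lies 894 bases away. SBF2 changed by −0.26 (SE 0.17, limma adjusted p = 0.372) beside −1.69 for SBF2-AS1. EIF3J, at 10.29 to 10.40 in the HOXD13 lines and 10.31 to 10.39 in the vector, changed by 0.00 (SE 0.08, limma adjusted p = 0.997) beside −1.40 for EIF3J-DT. OTUD6B changed by 0.37 (SE 0.36, limma adjusted p = 0.561) beside 1.67 for OTUD6B-AS1.

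The change of the transcript minus that of its host separated the HOXD13 lines from the vector without overlap in 34 of the 118 pairs, 18 of the 26 with a called transcript and 16 of the 92 others. For single genes the share without overlap was 28.9% over all 10344 tested. It was not computed for differences between other pairs of genes, so the 34 pairs are a description only. The 26 were chosen for the transcript's change on the same arrays, so nothing is read from their count. A two-sided exact permutation test of 4 against 3 arrays cannot go below 0.0571, and no pair could therefore pass. Among the 26 the difference was without overlap in all 7 rises and in 11 of the 19 falls. The falls that overlapped included ATP6V0E2-AS1, NCAM1-AS2, LOXL1-AS1 and WARS2-AS1.

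Both members of the pair passed in 2 cases, both lower. DPH5, of diphthamide synthesis, was at 9.58, 9.41, 9.35 and 9.42 in the HOXD13 lines, against 9.86, 9.85 and 9.93 in the vector (−0.44, SE 0.10, limma adjusted p = 0.0183), beside −0.55 for DPH5-DT, which starts 62 bases away. TMEM44 changed by −0.32 (SE 0.10, limma adjusted p = 0.0491), beside −0.47 for TMEM44-AS1. Without clone c of HOXD13 both passed in 10 pairs. Neither of the 2 pairs kept both calls without any 1 V5 vector array, HA vector array or HOXD13 mixed population, clone a or clone b.

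In 6 pairs the host passed and the transcript did not. MELTF, which encodes melanotransferrin, changed by −1.10 (limma adjusted p = 0.000278) beside 0.09 for MELTF-AS1, and ICA1 by −1.04 (limma adjusted p = 0.00548) beside −0.20 for ICA1-AS1. FAM131B changed by −0.80, the calcium channel gene ITPR3 by −0.58, the tRNA methyltransferase gene THUMPD3 by 0.42 and ZSCAN16 by 0.40. ICA1 was at 5.78, 6.20, 5.55 and 6.51 in the HOXD13 lines, against 6.97, 6.98 and 7.21 in the vector.

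**Figure D4:**
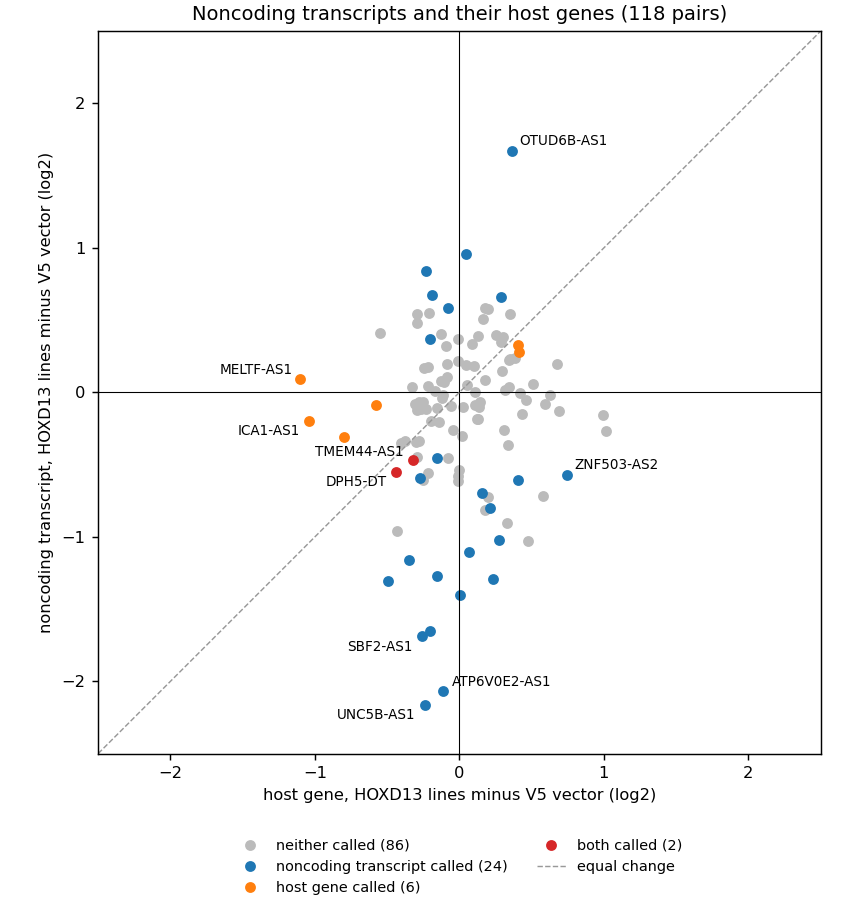
Log2 change in the HOXD13 lines against the V5 vector for the host gene (horizontal axis) and the noncoding transcript (vertical axis) of 118 pairs; colours show which member passed at a limma adjusted p under 0.05, and the dashed line marks equal change. Transcripts that passed spread from −2.16 to 1.67, while their hosts lie between −0.50 and 0.75. The transcripts were chosen for their change and the hosts were not.

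With HOXD9 none of the 205 transcripts passed at a limma adjusted p under 0.05, and 1 gene of 10344 did (0.00967%). At an unadjusted p under 0.05 29 were higher and 4 lower, against 1346 higher and 1083 lower of all 10344 genes. Without clone b of HOXD9 13 passed (6.34%), against 8.51% of all genes. Without clone c of HOXD13, which shares the estimate of the spread, 19 passed (9.27%), against 10.6% of all genes. The median change was 0.10 for the 205, against 0.08 for all genes. All 4 HOXD9 lines lay above all 3 HA vector arrays in 39 transcripts and below in 13 (25.4%), against 36.6% of all genes.

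ZNF582-DT had the lowest adjusted p. It was at 5.90, 5.94, 5.81 and 6.11 in the HOXD9 mixed population and clones a to c, against 5.41, 5.27 and 5.29 in the HA vector, so that no line overlapped the vectors (0.62, SE 0.11, adjusted p = 0.105). ATP2A1-AS1 was at 8.89 to 8.99 in the HOXD9 lines, against 8.20 to 8.30 in the HA vector (0.69, adjusted p = 0.121). Downward, ALMS1-IT1 was at 4.78, 4.42, 4.69 and 3.58, against 5.29, 5.14 and 5.11 (−0.81, adjusted p = 0.147).

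OIP5-AS1, a long noncoding RNA that binds the microRNA miR-7, was at 10.05, 10.18, 10.18 and 9.06 in the HOXD9 lines, against 10.57, 10.57 and 10.59 (−0.71, adjusted p = 0.147), with clone c farthest from the vector. NNT-AS1 (−0.70) and PHEX-AS1 (0.65) had adjusted p of 0.225 and 0.316. The 5 transcripts of highest mean, EPB41L4A-AS1, LINC02381, OIP5-AS1, FGD5-AS1 and WAC-AS1, changed by 0.05, 0.16, −0.71, −0.40 and −0.16. None of their changes passed, and EPB41L4A-AS1 had the highest mean over the 14 arrays, 12.52.

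The effect of HOXD13 minus that of HOXD9 was tested in the same fit, each effect taken within its own tag set. It passed for 36 transcripts (17.6%), 2 higher and 34 lower, against 9.64% of all genes, 1.52% higher and 8.12% lower. The median difference was −0.20 for the 205 and −0.04 for all genes. Of the 36, 23 had also passed with HOXD13 alone and 13 had not. Without clone c of HOXD13 70 passed, against 22.2% of all genes. Without 1 vector array of either tag 12 to 14 passed (5.85% to 6.83%), against 3.71% to 4.23% of all genes. Without the HOXD13 mixed population 17 passed, against 5.85% of all genes, without clone a 18 (8.78%), against 6.28%, and without clone b 22 (10.7%), against 7.95%. Of the 36 calls 11 held in each of the 14 fits that leave 1 array out.

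UNC5B-AS1 changed by −2.16 with HOXD13 and by 0.25 with HOXD9, where it was at 7.34, 7.65, 7.37 and 7.31 in the lines, against 7.17, 7.11 and 7.23 in the HA vector. The difference was −2.41 (limma adjusted p = 0.003). ATP6V0E2-AS1 differed by −2.28 (adjusted p = 0.0399), a call that ended in 12 of the 14 fits. LINC00963 differed by −1.75 (adjusted p = 0.00358), LINC02709 by −1.74 (adjusted p = 0.00746) and SBF2-AS1 by −1.58 (adjusted p = 0.0169). The 2 positive differences were NPTN-IT1, 0.86 (adjusted p = 0.0485), and CARD8-AS1, 0.60 (adjusted p = 0.0372), and each of these calls ended in 11 of the 14 fits.

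PHEX-AS1 differed by 1.78 with an adjusted p of 0.0719, LINC00622 by 1.19 with 0.055 and OTUD6B-AS1 by 1.30 with 0.104. Those 3 rises therefore did not pass as different from the HOXD9 effect. The 13 that passed only here include ZNF582-DT, at −0.27 with HOXD13 and 0.62 with HOXD9, with a difference of −0.89 (adjusted p = 0.00497), and LINC00665, at −0.35 and 0.52, with a difference of −0.88 (adjusted p = 0.00746). The other passing probe set of LINC00665 changed by 0.16 with HOXD13 and 0.02 with HOXD9, and its call ended with the mean of the gene's probe sets.

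**Figure D5:**
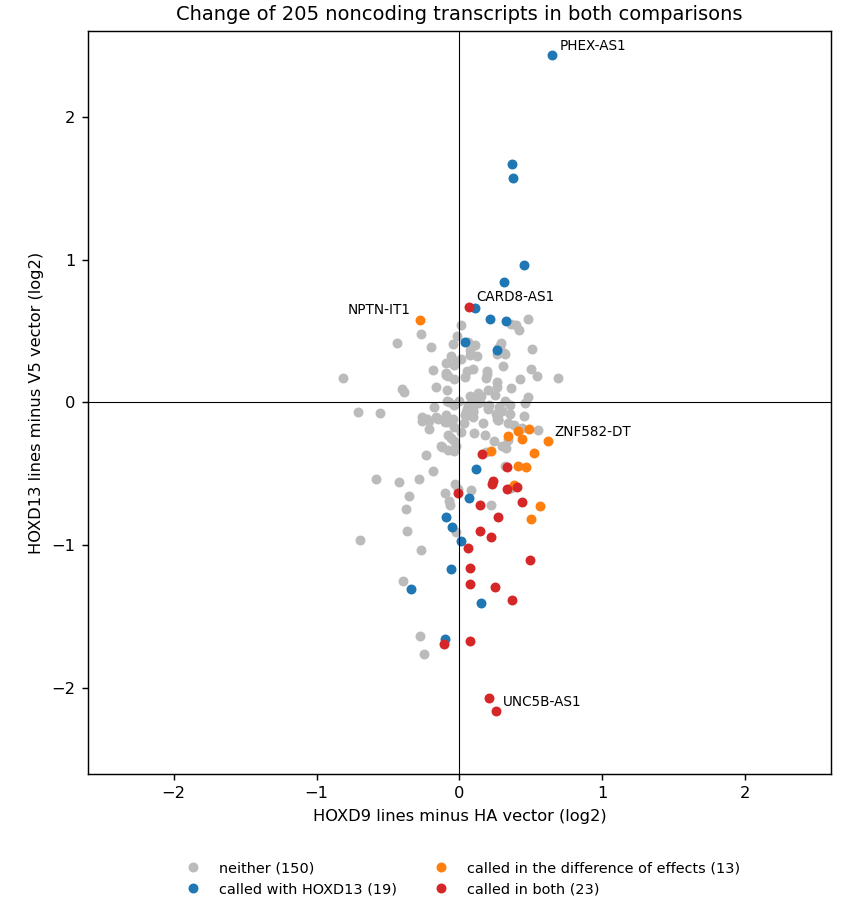
Log2 change of each of the 205 transcripts with HOXD9 (horizontal axis, lines minus HA vector) and with HOXD13 (vertical axis, lines minus V5 vector); colours show which passed with HOXD13, in the difference of effects, or in both. With HOXD13 the transcripts spread over a wider range than with HOXD9, where none passed.

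Other noncoding RNAs and the machinery that degrades short-lived transcripts were read beside them. Of 38 other long noncoding RNAs 12 were tested, and 2 were called higher with HOXD13 and none lower. Over all genes tested 2.88% were called higher and 7.76% lower. KCNQ1OT1, the antisense RNA of an imprinted region, was at 5.72, 6.03, 6.11 and 5.68 in the HOXD13 lines, against 4.42, 4.24 and 3.96 in the vector, a difference of 1.68. It reached 5 only in the HOXD13 lines and so had to differ, and nothing is read from its call. DANCR rose by 0.83 (limma adjusted p = 0.0301), with clone c at 8.96, against 8.86 to 8.92 in the vector. With HOXD9 none passed, and MALAT1 was at 12.34, 10.25, 12.45 and 11.81 in the lines, against 13.14, 13.19 and 13.08 in the HA vector (−1.42, adjusted p = 0.147). Of 19 genes of the nuclear exosome and its adaptors 1 fell with HOXD13, against 7.76% of all genes: EXOSC8, a core subunit, by −0.72 (limma adjusted p = 0.0384). The largest change among the 19 was upward and did not pass, 1.22 for EXOSC4 (limma adjusted p = 0.0929). EXOSC4 lay above the vector mean in the mixed population and clones a and b and below it in clone c. None of 15 Integrator genes passed, against 10.6% of all genes with HOXD13.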

How the data were processed

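The deposited values are on a log2 scale, 1 per probe set, and come from GCRMA per the submitters' processing notes, whose version is not given in the sources used here. Sorted values agreed between the 7 arrays of a tag set (largest gap 0.00102 for HA, 0.00195 for V5), while the 75th percentile was 6.27 for HA and 7.02 for V5. Each set was therefore taken as normalized by itself, and no level was set across sets. The array has 54675 probe sets. A single symbol was listed for 41097, several for 1801 and none for 11777, and RefSeq of GRCh38.p14 matched 41043 of those with a single symbol and changed none.

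Group means of the 4 groups were fitted to the 14 arrays in limma 3.58.1 (lmFit, eBayes; R 4.3.3). The residual degrees of freedom were 10, with 3.01 added by the prior. Tests were two-sided, with Benjamini-Hochberg adjustment over 10344 genes. The code was tested on simulated data. The number of arrays limits the precision. Members, lists and alternatives were chosen with earlier results of these data known. The text names every transcript called in a comparison or in the difference of effects, the group's 4 markers, the 5 uncalled of largest change per comparison, the 5 of highest mean, those nearest the level, and their hosts. Alternatives changed the arrays fitted, the level filter, the probe set summary, centring, weights, prior and an actin covariate.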

Additional observations from a re-analysis of the deposited data

Results flagged for a closer look

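In 36 transcripts the effect of HOXD13 differed from that of HOXD9 by the test of the difference (limma adjusted p under 0.05); values are HOXD13 effect minus HOXD9 effect on the log2 scale. The differences of at least 1 in size were UNC5B-AS1 −2.41, ATP6V0E2-AS1 −2.28, LINC00963 −1.75, LINC02709 −1.74, KANSL1-AS1 −1.60, SBF2-AS1 −1.58, PSMG3-AS1 −1.54, TMPO-AS1 −1.35, ST20-AS1 −1.32, MNX1-AS1 −1.29, KLRK1-AS1 −1.23, HOXB-AS3 −1.16, CNN3-DT −1.14, HHIP-AS1 −1.08, TDH-AS1 −1.08 and LINC02893 −1.04. Smaller ones were ZBED5-AS1 −0.996, ANKRD13C-DT −0.96, FOXN3-AS1 −0.94, ZNF687-AS1 −0.92, ZNF582-DT −0.89, LINC00665 −0.88, ASH1L-AS1 −0.87, PXN-AS1 −0.86, ZNF503-AS2 −0.80, DPH5-DT −0.79, RNASEH1-DT −0.79, PRKAG2-AS1 −0.69, ZNF529-AS1 −0.67, LINC00965 −0.62, ICA1-AS1 −0.61, PRR34-AS1 −0.58, ERCC6L2-AS1 −0.56 and LINC02381 −0.52. The positive ones were NPTN-IT1 0.86 and CARD8-AS1 0.60.

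Single lines lay far from the other 3 of their group in 8 of 136 groups of 4 examined, where chance gives about 1 in 20. Clone c of HOXD13 was at 7.63 for LOXL1-AS1, against 6.44 to 6.62 in the other HOXD13 lines, at 6.41 for PRKCQ-AS1, against 7.17 to 7.31, and at 4.60 for TMPO-AS1, against 3.25 to 3.48. Clone b of HOXD13 was at 3.64 for TDH-AS1, against 4.16 to 4.22. Clone c of HOXD9 was at 7.66 for ASH1L-AS1, against 7.05 to 7.08 in the other HOXD9 lines, and at 9.06 for OIP5-AS1, against 10.055 to 10.18. Clone a of HOXD9 was at 6.22 for TMEM44-AS1, against 6.70 to 6.78, and at 7.65 for UNC5B-AS1, against 7.31 to 7.37.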

How the results depend on the processing

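No call changed sign under any alternative. The counts of called transcripts did move. With HOXD13, 42 passed (11 higher, 31 lower), or 20.5% against 10.6% of all genes. Only the 7 arrays of the V5 set gave 24 (7 higher, 17 lower), or 11.7% against 8.6% of all genes. No level filter gave 27 (18 lower), or 13.2% against 4.57%. Leaving out both mixed populations gave 19 (5 higher, 14 lower), or 9.27% against 4.15%. The actin difference as a covariate gave 75 (20 higher, 55 lower), or 36.6% against 25.1%. Leaving out 1 array gave 14 to 94 (4 to 30 higher, 10 to 64 lower). These are 6.83% to 45.9%, against 2.93% to 35.8% of all genes. With HOXD9, 0 passed. The actin covariate gave 3, all higher, or 1.46% against 0.483% of all genes. Leaving out 1 array gave 0 to 19 (0 to 16 higher, 0 to 3 lower). The 19 are 9.27%, against 10.6% of all genes. For the difference of effects, 36 passed (2 higher, 34 lower), or 17.6% against 9.64% of all genes. No filter gave 21 (1 higher, 20 lower), or 10.2% against 4.24%. Leaving out both mixed populations gave 11 (0 higher, 11 lower), or 5.37% against 4.89%. The trended robust prior gave 0 higher. The actin covariate gave 64 (7 higher, 57 lower), or 31.2% against 19.6%. Leaving out 1 array gave 12 to 70 (0 to 8 higher, 12 to 62 lower), and the 7 arrays of 1 set give no such difference. The 12 to 70 are 5.85% to 34.1%, against 3.71% to 22.2% of all genes. Transcript and host both passed in 2 pairs, in 1 with only the 7 arrays or the trended robust prior, in 0 with no filter, with each array centred on its median or without both mixed populations, in 4 with the mean of a gene's probe sets, in 5 with the actin covariate, and in 0 to 10 when 1 array was left out. A level of 6 left 132 members. Clone c of HOXD13 and clones a and c of HOXD9 were also left out together, a setting chosen after seeing the data. It gave 130 with HOXD13 (41 higher, 89 lower), or 63.4% against 64.8% of all genes. With HOXD9 it gave 16 (12 higher, 4 lower), or 7.8% against 8.23%. In the difference of effects it gave 101 (24 higher, 77 lower), or 49.3% against 45.2%. Transcript and host both passed in 30 pairs. The causes of these moves were not tested. No paired analysis was possible because the HOX lines carry no replicate number, and the vectors that share numbers are not compared with each other.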
